A study of Danio rerio with 3 samples.

Results

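Gluconeogenesis and glycogen metabolism were followed through 7 genes, pck1, fbp1b, g6pca.1, pgm1, gys2, pygl and ppp1r3ca, among the 15633 genes listed in at least 1 of 3 single-cell libraries of zebrafish liver. The genes were chosen by symbol and not by a limit on their values, and each library listed all 7 of them. They were read in cells with at least 10000 unique molecular identifiers (UMIs, counts of distinct captured transcripts), called deep cells below. There were 2337 deep cells among 6055 cells in all.

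Each library came from the liver of 1 adult male fish at 6 months of age. HepABC HCC was a liver with hepatocellular carcinoma (HCC) of the line Tg(fabp10a:pt-β-cat), whose hepatocytes all carry activated β-catenin under the fabp10a promoter. The study reports that nuclear or cytoplasmic β-catenin is heterogeneous among the cells of such tumors. Its methods list no larval treatment for the HepABC HCC fish. Per the study's methods this fish also carried a Wnt reporter, Tg(7xTCF-Xla.Siam:mCherry). CreLox HCC was a liver with HCC from a fish that carried fabp10a:CreERT2, a hepatocyte Cre recombinase that tamoxifen induces and that per the study also acts in some hepatocytes without it, with a fabp10a lox-switch transgene in which Cre exchanges a blue fluorescent protein for activated β-catenin. The no HCC liver carried the same lox switch without Cre. The CreLox HCC and no HCC fish were both given 10 µM 4-hydroxytamoxifen as larvae from day 3 to day 6. These livers differed from each other in Cre and tumor state together. HepABC HCC differed from both in β-catenin transgene, treatment and reporter, and from no HCC in tumor state as well. Within each pair these differences cannot be told apart from each other or from the library. In both tumor models the driving promoter limits β-catenin activation to hepatocytes.

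The liver stores glucose as glycogen after feeding and releases glucose between meals, either from that store or by gluconeogenesis, the synthesis of glucose from lactate, amino acids and glycerol. Gluconeogenesis runs glycolysis in reverse except at irreversible steps, which have their own enzymes. pck1 encodes the cytosolic phosphoenolpyruvate carboxykinase, fbp1b a fructose bisphosphatase and g6pca.1 a catalytic subunit of glucose-6-phosphatase, which frees glucose for export. pgm1 encodes phosphoglucomutase, which links glucose phosphates with glycogen in both directions. gys2 encodes the liver glycogen synthase and pygl the liver glycogen phosphorylase, which build and break down the store. ppp1r3ca encodes a subunit that in mammals brings protein phosphatase to glycogen, where it activates the synthase and inactivates the phosphorylase. In mammals insulin lowers and glucagon raises the transcription of pck1 and of glucose-6-phosphatase.

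The libraries differed in depth before any gene was read. Deep cells numbered 1938 for HepABC HCC, 186 for CreLox HCC and 213 for no HCC, which was 67.6%, 8.81% and 19.8% of their cells and held 91.3%, 54.3% and 65.3% of their UMIs. Their median depths were 20802, 24906.5 and 17048 UMIs, and their median mitochondrial shares 5.94%, 5.77% and 8.46%. All 9 hepatocyte markers had UMIs in each library and together took a median of 12.9%, 14.7% and 22.5% of a deep cell's UMIs. Markers of other cells were low in sum, at 85.2 to 116 CPM (the UMIs of a gene scaled to a common library total) for the 9 immune markers and 4.27 to 12.2 CPM for the stellate and endothelial ones, of which kdrl, fli1a, pecam1 and cdh5 had 0 UMIs in no HCC. The cholangiocyte list summed to 590 CPM for HepABC HCC, 696 CPM for CreLox HCC and 188 CPM for no HCC, and nearly all of this was anxa4. Thrombocyte markers were at 0 in CreLox HCC and erythrocyte markers at 0.597 and 1.02 CPM in the tumors, but in no HCC erythrocyte markers summed to 1458 CPM because 1 deep cell had 49.0% of its UMIs in them. Dissociation stress genes summed to 1068, 1050 and 773 CPM. Between 1 and 8 cell barcodes were shared by each pair of libraries, and at most 1 of these was a deep cell in both.

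The 7 genes kept nearly the same order of level in all 3 livers, with fbp1b highest, then pck1 and then pygl, and gys2 lowest. A level here is the summed UMIs of a gene over the deep cells of a library in CPM. Each transcript gives a tag at its 3′ end, so levels were not divided by gene length. fbp1b was at 2632 CPM for HepABC HCC, 2180 CPM for CreLox HCC and 2898 CPM for no HCC, and it ranked between 59th and 121st among all genes of its library. gys2 was at 20.5, 41.0 and 30.0 CPM. The position that differed was that of ppp1r3ca, which was 4th of the 7 in HepABC HCC, above pgm1 and g6pca.1, and 6th in the others. In CreLox HCC and no HCC it was below g6pca.1, although in CreLox HCC the counting intervals of both overlapped (62.3 to 77.2 CPM against 68.6 to 84.3 CPM).

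**Figure D1:**
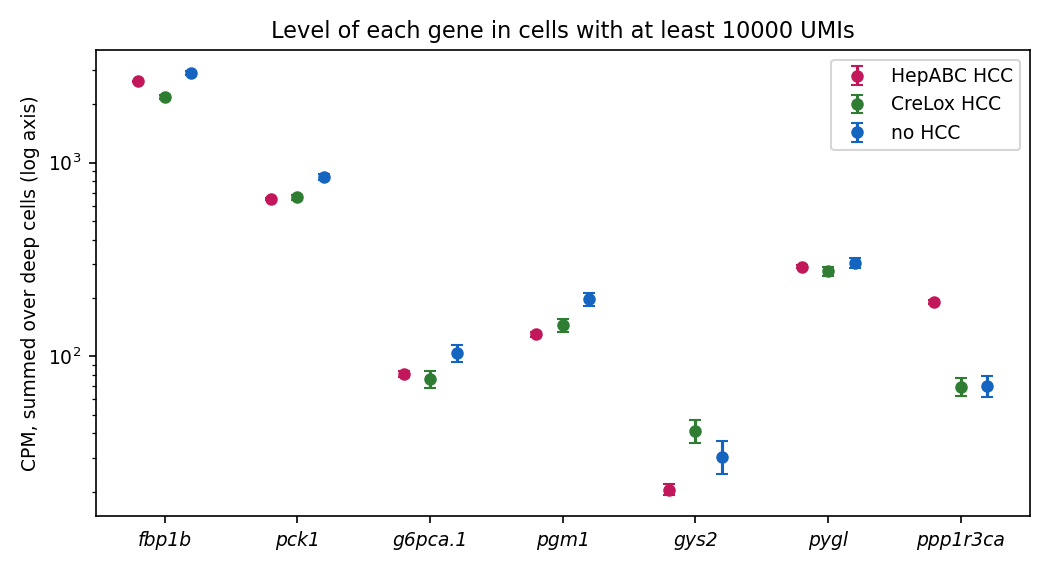
Level of each gene in the deep cells of each library. The log axis gives CPM from summed UMIs, points are the 3 libraries, and bars are exact 95% Poisson intervals, which cover counting error only. ppp1r3ca stands at 191 CPM in HepABC HCC against 69.5 and 69.9 CPM in the other livers, while the no HCC point is the highest for fbp1b, pck1, g6pca.1, pgm1 and pygl.

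The question asked of the levels was whether livers with β-catenin-driven HCC differed from the liver without HCC in these genes, and whether the tumors differed from each other. The 3 gluconeogenic genes of the 7 were all lower in deep cells of both tumors than in those of no HCC, none of them by 2-fold. In cells under 10000 UMIs pck1 was at 630, 639 and 530 CPM for HepABC HCC, CreLox HCC and no HCC. There g6pca.1 was at 62.3, 48.5 and 36.3 CPM and fbp1b at 1587, 2704 and 1737 CPM. The direction was thus the opposite there, except for fbp1b in HepABC HCC. Cells with immune markers are among these shallower cells. ppp1r3ca was higher in HepABC HCC than in either other liver, and gys2 was lower in HepABC HCC than in CreLox HCC. Each group had 1 library, so there is no spread between animals to set these differences against, and they carry no test. The bracketed intervals are exact at 95% and hold counting error alone.

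pck1 stood at 842 CPM (812 to 873) in the liver without HCC, and at 650.0 CPM (642 to 658) in HepABC HCC and 660.4 CPM (638 to 683) in CreLox HCC. Its ratio to no HCC was 0.772 (0.743 to 0.802) for HepABC HCC and 0.784 (0.746 to 0.824) for CreLox HCC. These comparisons use the same no HCC library. Whether the tumors differed depended on scaling. pck1 in HepABC HCC was at 0.984 times (0.949 to 1.02) its CreLox HCC level by library totals and 1.1 times (1.06 to 1.14) with TMM factors, which set libraries by the bulk of their genes rather than by their totals.

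g6pca.1 was at 80.9 CPM for HepABC HCC, 76.2 CPM for CreLox HCC and 103 CPM for no HCC. Its ratio to no HCC was 0.783 (0.703 to 0.874) for HepABC HCC and 0.737 (0.636 to 0.853) for CreLox HCC, close to the values of pck1. fbp1b was 0.908 times (0.890 to 0.927) its no HCC level in HepABC HCC and 0.752 times (0.732 to 0.773) in CreLox HCC. Its level in HepABC HCC was 1.21 times (1.18 to 1.23) that in CreLox HCC, where g6pca.1 was at 1.06 (0.955 to 1.18), or 1.19 (1.07 to 1.33) with TMM factors. When every cell of the library was used, the fbp1b ratio of HepABC HCC to no HCC passed 1, at 1.02.

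Of the glycogen genes, pgm1 was at 130 CPM, 144 CPM and 197 CPM in HepABC HCC, CreLox HCC and no HCC. It had the lowest ratio of the 7 genes in HepABC HCC over no HCC, 0.661 (0.611 to 0.716), and 0.734 (0.660 to 0.816) in CreLox HCC. pygl was at 290.3, 275 and 302 CPM, with ratios to no HCC of 0.961 (0.903 to 1.02) and 0.909 (0.838 to 0.986). These values depended on the cells and the scaling. With every cell counted the pgm1 ratios were 0.682 and 0.968, and both pygl ratios were above 1, at 1.11 and 1.07. With TMM factors the pygl ratios were 0.757 and 0.640.

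gys2 was the least covered of the 7, with 892 UMIs for HepABC HCC, 202 for CreLox HCC and 106 for no HCC. Its level in HepABC HCC was 0.683 times (0.558 to 0.843) that in no HCC and 0.499 times (0.428 to 0.585) that in CreLox HCC. In CreLox HCC it was 1.37 times (1.08 to 1.75) its no HCC level, but this direction depended on scaling and turned to 0.963 with TMM factors and to 0.945 with median-of-ratios size factors, another scaling of this kind. The ratio between the tumors was below 1 under all 9 alternatives, between 0.452 and 0.559.

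ppp1r3ca had 8302 UMIs for HepABC HCC, 342 for CreLox HCC and 247 for no HCC, or 191 CPM (187 to 195), 69.5 CPM (62.3 to 77.2) and 69.9 CPM (61.5 to 79.2). The HepABC HCC library was the high one, and its interval lay clear of both others. The ratio was 2.73 (2.40 to 3.11) to no HCC and 2.75 (2.46 to 3.07) to CreLox HCC. These ratios stayed above 2 under every one of the 9 alternatives tried, with lowest values of 2.06 and 2.45. The level in CreLox HCC was 0.993 times (0.841 to 1.17) the no HCC one by library totals but 0.700 with TMM factors and 0.687 with median-of-ratios size factors, so whether these livers differed depended on scaling.

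Counted together, 1 of the 7 genes was at least 2-fold higher in HepABC HCC than in no HCC, where 20.4% of 2959 genes with a mean of at least 10 CPM were, and 0 were at least 2-fold lower, where 9.09% of genes were. For CreLox HCC over no HCC the counts were 0 higher and 0 lower, with 15.8% and 3.02% of 3047 genes past those limits. For HepABC HCC over CreLox HCC they were 1 higher (ppp1r3ca) and 1 lower (gys2), with 6.11% and 11.6% of 3290 genes. None of these counts is far from the background share.

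The median log2 ratio of the 7 genes was -0.35 in HepABC HCC over no HCC and -0.35 in CreLox HCC over no HCC, against medians of 0.33 and 0.41 over all genes counted. For HepABC HCC over CreLox HCC the medians were 0.08 for the 7 genes and -0.07 for all. TMM scaling moved the medians of all genes to -0.02, -0.11 and 0.10 and those of the 7 genes to -0.70, -0.86 and 0.24. It also moved the split of all genes past 2-fold, from 603 higher and 269 lower to 350 and 469 in HepABC HCC over no HCC, from 482 and 92 to 166 and 287 in CreLox HCC over no HCC, and from 201 and 381 to 260 and 275 between the tumors. Relative to the median of all genes, pck1 was at -0.71 and -0.76 on the log2 scale in HepABC HCC and CreLox HCC over no HCC, g6pca.1 at -0.69 and -0.85, fbp1b at -0.47 and -0.82, and ppp1r3ca at 1.11 and -0.42.

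**Figure D2:**
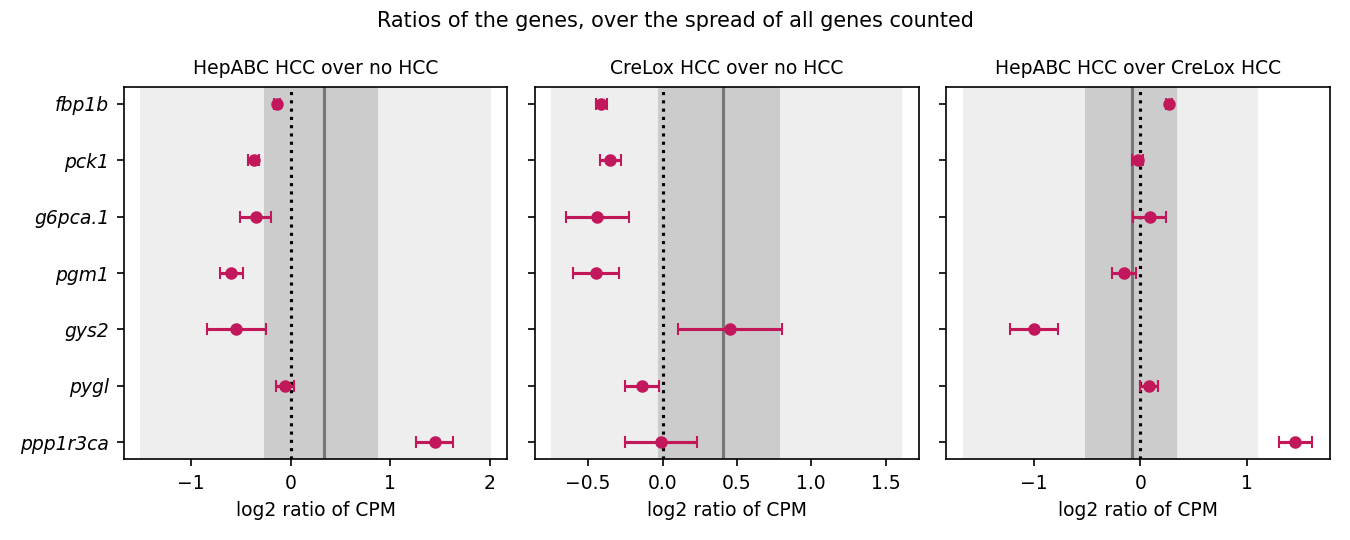
Ratio of each gene between libraries on the log2 scale, with exact 95% intervals for counting error as bars. The dark band spans the middle 50% and the light band the 5th to 95th percentile of all genes with a mean of at least 10 CPM, and the gray line is their median. Against no HCC all genes but ppp1r3ca in HepABC HCC and gys2 in CreLox HCC lie to the left of that median, ppp1r3ca lies at 1.45 in HepABC HCC over no HCC, and in HepABC HCC over CreLox HCC only ppp1r3ca and gys2 lie outside the middle band.

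Both g6pca.1 and ppp1r3ca have a second copy in the zebrafish genome, and the balance between copies differed between livers. The second glucose-6-phosphatase gene, g6pca.2, was the more abundant one throughout, with 940.4 CPM for HepABC HCC, 427 CPM for CreLox HCC and 396 CPM for no HCC. g6pca.1 was therefore 7.92% (7.67 to 8.18) of their summed UMIs for HepABC HCC, 15.1% (13.7 to 16.6) for CreLox HCC and 20.7% (18.8 to 22.7) for no HCC. While g6pca.1 was lower in HepABC HCC than in no HCC, g6pca.2 was 2.38 times (2.25 to 2.51) higher, or 1.87 times with TMM factors, and the sum of both was 1021 CPM, against 503 CPM for CreLox HCC and 499 CPM for no HCC. How reads from any near-identical stretches of both copies were counted was not examined, so both the shares and the sum are uncertain in this respect.

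For the phosphatase subunit the copies went the other way. ppp1r3cb was at 34.8 CPM for HepABC HCC, 52.8 CPM for CreLox HCC and 41.6 CPM for no HCC, so that ppp1r3ca made up 84.6% (83.9 to 85.3), 56.8% (52.7 to 60.8) and 62.7% (57.7 to 67.5) of their sum. The remaining genes were the main copy of their kind in all 3 livers. fbp1b held at least 99.7% of the UMIs of fbp1b and fbp1a, and gys2 at least 95.2% of those of gys2 and gys1, the muscle-type synthase of mammals. pck1 held 71.7%, 65.8% and 71.4% of the UMIs of pck1 and pck2, the latter encoding the mitochondrial enzyme. pgm1 held 86.1%, 87.5% and 91.3% of those of pgm1 and pgm2.

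**Figure D3:**
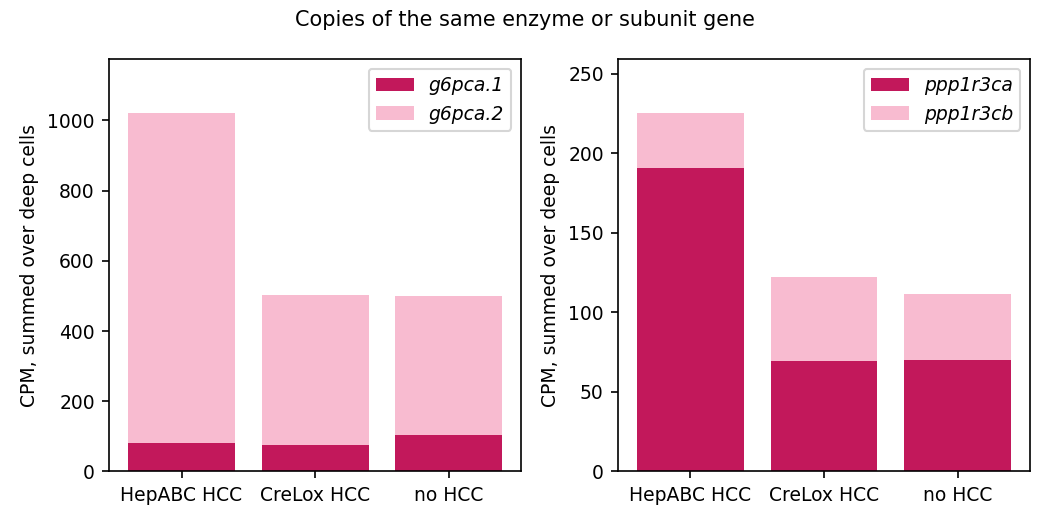
Summed CPM of g6pca.1 with g6pca.2 (left) and of ppp1r3ca with ppp1r3cb (right) in the deep cells of each library, stacked from 0. The taller HepABC HCC bar is made by g6pca.2 on the left, at 940.4 CPM, and by ppp1r3ca on the right, at 191 CPM.

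Other genes of glucose and glycogen metabolism were mostly within 2-fold between livers. Among 16 further gluconeogenic genes, 9 or 10 had a mean of at least 10 CPM in a given comparison, and g6pca.2 was the single one past 2-fold, higher in HepABC HCC than in no HCC and than in CreLox HCC (2.2 times, 2.11 to 2.3). That is 1 of 9 genes in each of these comparisons, where 20.4% and 6.11% of all genes were higher. With TMM factors g6pca.2 was no longer past 2-fold over no HCC, and pcxb, a pyruvate carboxylase gene, was at 0.409 in CreLox HCC over no HCC. pck2 and pcxa, which encodes pyruvate carboxylase, were 0.760 times (0.716 to 0.808) and 0.675 times (0.618 to 0.739) their no HCC level in HepABC HCC. In CreLox HCC their ratios were 1.02 (0.943 to 1.1) and 0.953 (0.852 to 1.07). By TMM scaling pck2 and pcxa were below 1 in both tumors, at 0.599 and 0.532 in HepABC HCC and 0.717 and 0.671 in CreLox HCC. Other genes of the list lay on the other side of 1 in HepABC HCC over no HCC, such as the malate dehydrogenase gene mdh2 at 1.64 (1.53 to 1.75) and slc37a4a, which encodes the glucose-6-phosphate transporter, at 1.36 (1.25 to 1.48). With TMM factors these were 1.29 and 1.07. Median log2 ratios of the list were 0.14, -0.04 and 0.34 in the order HepABC HCC over no HCC, CreLox HCC over no HCC and HepABC HCC over CreLox HCC.

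Of 13 genes for the reversible steps that glycolysis shares, 8 were counted. Both phosphoglycerate mutase genes were past 2-fold in HepABC HCC over no HCC, pgam1a at 0.493 (0.465 to 0.523) and pgam1b at 0.348 (0.265 to 0.462), which is 2 of 8 beside 9.09% of all genes. In CreLox HCC over no HCC 0 of the list were past 2-fold. Between the tumors pgam1b was at 0.427 (0.330 to 0.558), which is 1 of 8 beside 11.6%. The remaining members reported here, such as gapdh, stayed within 2-fold.

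The glycogen list was thinly covered, with 5 or 6 of its 35 genes counted. In HepABC HCC over no HCC 2 of 6 were past 2-fold and higher, beside 20.4% of all genes. These were ppp1r3b, another glycogen-targeting subunit, which is abundant in mammalian liver, at 2.12 (1.69 to 2.71), and phkg2, the catalytic subunit of phosphorylase kinase, at 2.68 (1.74 to 4.36) on 21 UMIs in no HCC. With TMM factors ppp1r3b was at 1.67 and phkg2 at 2.12, and gyg1a, a glycogenin gene, was past 2-fold lower at 0.417. In CreLox HCC over no HCC 0 of 5 were past 2-fold by library totals and gyg1a was at 0.452 with TMM factors, and between the tumors 0 of 6 were past 2-fold under both.

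Of 30 hormone and transcription regulators, 12 or 13 were counted in a given comparison. In HepABC HCC over no HCC 3 of 12 were higher and 1 lower, near the 20.4% and 9.09% of all genes. With TMM factors 3 were higher and 2 lower, the second being the glucose transporter gene slc2a2 at 0.480. creb3l3a, a transcription factor that in mammals acts in the fasted liver, was at 98.0 CPM for HepABC HCC, 69.3 CPM for CreLox HCC and 19.0 CPM for no HCC, or 5.17 times (4.06 to 6.68) and 3.65 times (2.80 to 4.82) its no HCC level. igfbp1a, which binds insulin-like growth factors and is lowered by insulin in mammals, was at 948 CPM, 537 CPM and 171 CPM, or 5.55 times (5.13 to 6.03) and 3.14 times (2.88 to 3.44).

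foxo1a, a factor that in mammals insulin inactivates and that promotes gluconeogenic genes, was 3.23 times (2.34 to 4.58) its no HCC level in HepABC HCC and 2.47 times (1.71 to 3.65) in CreLox HCC, or 1.74 times with TMM factors in the latter. It had 38 UMIs in no HCC. These 3 regulators were named for being past 2-fold in these data and were read in deep cells only. There they were higher in both tumors than in no HCC, while pck1 and g6pca.1 were lower in both. In cells under 10000 UMIs pck1 and g6pca.1 were instead higher in both tumors, as given above. By library totals the contrast in deep cells does not extend to the g6pca.1 and g6pca.2 pair, of which g6pca.1 was the minor copy. Their sum was 1021 CPM for HepABC HCC, 503 CPM for CreLox HCC and 499 CPM for no HCC. For CreLox HCC this depended on scaling, since with TMM factors g6pca.1 was at 0.519 and g6pca.2 at 0.760 of no HCC. Nor does the contrast hold for the regulators as a list, since gcgra, the glucagon receptor gene, and slc2a2 were lower in both tumors. klf15, a regulator of amino acid use in mammals, was lower in HepABC HCC than in no HCC (0.369, 0.292 to 0.470) and than in CreLox HCC (0.471, 0.376 to 0.595).

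In CreLox HCC over no HCC 5 of 13 regulators were higher and 0 lower, where 15.8% and 3.02% of all genes were. Beside the 3 above these were cebpa, a factor of hepatocyte identity, at 2.53 (2.16 to 2.98), and sik1, a kinase that in mammals restrains hormone-driven gluconeogenesis, at 3.11 (1.84 to 5.52) on 18 UMIs in no HCC. With TMM factors 3 of 13 were higher, creb3l3a, sik1 and igfbp1a, with cebpa at 1.79, and the glucagon receptor gene gcgra was past 2-fold lower at 0.415. cebpa and sik1, with klf15, were the 3 of 13 past 2-fold lower between the tumors, cebpa at 0.358 (0.329 to 0.391) and sik1 at 0.458 (0.357 to 0.595) in HepABC HCC over CreLox HCC, beside 11.6% of all genes lower. With TMM factors cebpa alone of the 13 was past 2-fold, at 0.401, with klf15 at 0.527 and sik1 at 0.513. Median log2 ratios of the regulators were 0.15, 0.37 and 0.02 in the same order as above, beside 0.33, 0.41 and -0.07 for all genes.

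How the genes were spread among cells was read after each deep cell had been thinned at random to 10000 UMIs, which puts all cells at the same depth. fbp1b was found in nearly every cell, with at least 1 UMI in 1937 of 1938 cells of HepABC HCC, 182 of 186 of CreLox HCC and 213 of 213 of no HCC. pck1 had a UMI in 96.1%, 95.7% and 97.2% of cells and pygl in 92.5%, 87.6% and 92.0%. These 3 genes thus had a UMI in most deep cells of each liver. Free RNA can raise such shares at this depth. Cells under 10000 UMIs with at least 5 immune marker UMIs had fbp1b at 392, 354 and 596 CPM. The shares at 10000 UMIs were not set against that background.

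ppp1r3ca was found in 70.6% (68.6 to 72.7) of HepABC HCC cells, 44.6% (37.3 to 52.1) of CreLox HCC cells and 48.8% (41.9 to 55.8) of no HCC cells. gys2 was found in 17.1% (15.5 to 18.9), 32.3% (25.6 to 39.5) and 24.9% (19.2 to 31.2) of cells. g6pca.1 had a UMI in 53.5%, 47.3% and 60.6% of cells, and pgm1 in 69.4%, 69.9% and 82.6%. Shares without thinning were higher, for example 83.8%, 67.2% and 61.5% for ppp1r3ca and 34.8%, 61.8% and 37.1% for gys2.

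Free RNA in droplets gives UMIs in cells that do not express a gene, and cells with at least 5 UMIs of 7 immune markers and under 10000 UMIs in all were read as a measure of it. They had median depths of 2586.5, 1954.5 and 1854 UMIs, and the comparison was made after thinning both kinds of cell to 1000 UMIs. ppp1r3ca then had a UMI in 16.9% of deep cells and 3.93% of immune marker cells in HepABC HCC, 4.30% and 0.481% in CreLox HCC, and 8.45% and 2.04% in no HCC. pck1 was found in 43.4% against 8.43% for HepABC HCC, 44.1% against 8.65% for CreLox HCC and 52.1% against 22.4% for no HCC. fbp1b, the most abundant, was in 90.1% against 33.1%, 77.4% against 30.8% and 93.4% against 50.5%. For gys2 the share was 1.65%, 2.69% and 3.29% of deep cells. Among immune marker cells gys2 was found in 0 of 178 in HepABC HCC and 0 of 208 in CreLox HCC. The exact upper bounds of these shares were 2.05% and 1.76%. In no HCC it was found in 1 of 196. The intervals of both kinds of cell were apart for pck1, fbp1b, g6pca.1 and pygl in each liver, for pgm1 in both tumors and for ppp1r3ca in HepABC HCC. They overlapped for pgm1 in no HCC, for ppp1r3ca in CreLox HCC and no HCC and for gys2 in all 3 livers. These shares do not separate from the background after thinning to 1000 UMIs. Without thinning, summed ppp1r3ca in immune marker cells was at 9.56 CPM (3.10 to 22.3) for CreLox HCC and 16.1 CPM (6.45 to 33.1) for no HCC. pgm1 was at 61.9 CPM (40.8 to 90.1) in those of no HCC. These intervals lay below those of the deep cells. As summed levels without thinning, gys2 had 0 UMIs in 183 immune marker cells of HepABC HCC (exact upper bound 7.27 CPM), and was at 3.82 CPM (0.463 to 13.8) for CreLox HCC and 4.59 CPM (0.555 to 16.6) for no HCC, below its levels in deep cells given above.

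The limit of 10000 UMIs did not mark a clear step in pck1 or ppp1r3ca in the tumors. pck1 was at 644 CPM in the 106 HepABC HCC cells with 10000 to under 12000 UMIs and at 728 CPM in the 143 cells with 8000 to under 10000. In CreLox HCC it was at 604 CPM in 14 cells inside and 578 CPM in 27 cells outside, and in no HCC at 875 CPM in 24 cells and 651 CPM in 23 cells. ppp1r3ca was at 154 and 164 CPM in HepABC HCC, 53.1 and 46.1 CPM in CreLox HCC, and 61.7 and 69.5 CPM in no HCC, inside and outside the limit.

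The genes differed widely in how unevenly they were held by cells of the same liver. Unevenness was measured as the excess squared coefficient of variation, the variance beyond that of counting divided by the squared mean, which is 0 when cells differ by counting alone. In HepABC HCC it was 0.624 for ppp1r3ca, above 95% of 2010 genes with a mean of at least 0.2 thinned UMIs, and 0.458 for pck1, above 92.0% of them. The median of those genes was 0.0887. pygl was at 0.0738 and fbp1b at 0.115, with g6pca.1, gys2 and pgm1 between 0.140 and 0.216.

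In plain counts, HepABC HCC cells had a mean of 1.91 ± 2.04 ppp1r3ca UMIs (SD over 1938 cells), with a median of 1, a 75th percentile of 3 and a maximum of 12. If cells differed by counting alone, 85.1% of them would have had a UMI, against the 70.6% found. The 10% of cells with most ppp1r3ca held 34.0% of its UMIs. The same cells had 6.44 ± 5.04 pck1 UMIs, with a median of 5, a 95th percentile of 16 and a maximum of 40, and the top 10% of cells held 27.2%. fbp1b was more even, at 25.8 ± 10.1 UMIs with 5th and 95th percentiles of 11 and 44, and its top 10% held 17.7%. Such top shares also rise as counts get sparser, so they do not measure unevenness alone. They were 35.1% for g6pca.1 and 62.9% for gys2 in this library.

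In CreLox HCC the excess of ppp1r3ca was 0.949, above 85.4% of 2200 genes, on a low mean of 0.763 UMIs in 186 cells. That of pck1 was 0.339, above 64.0% of them, and fbp1b was at 0.270. The median of those genes was 0.206 and their 95th percentile 2.96 in this library. fbp1b had 21.2 ± 11.9 UMIs there (SD over 186 cells), with 5th and 95th percentiles of 4.25 and 39. Its excess was 0.178 without the 54 cells in which non-hepatocyte markers passed 0.1% of UMIs. That list includes anxa4, which had a UMI in 98.9% of CreLox HCC deep cells, so cells past this limit need not be of other types. In no HCC fbp1b had 28.9 ± 8.72 UMIs (SD over 213 cells) and an excess of 0.0565, and pck1 8.49 ± 4.64 UMIs and an excess of 0.181, beside a median of 0.125 over 1731 genes. ppp1r3ca was at 0.0279 in no HCC, but at a mean of 0.671 UMIs this value was loose, and a second thinning gave 0.331. For gys2 the measure ranged below 0 in CreLox HCC (-0.228), so its unevenness was not detectable at this depth.

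**Figure D4:**
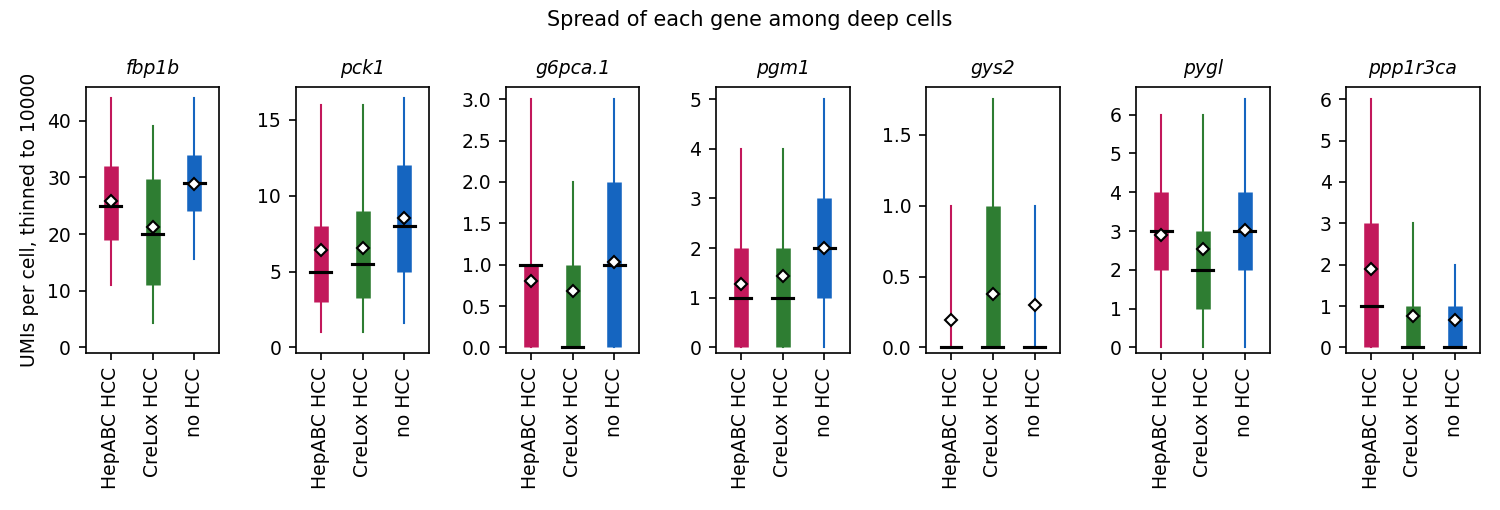
UMIs per deep cell after thinning to 10000 UMIs, for each gene and library. Thick bars span the 25th to 75th percentile and thin lines the 5th to 95th, black dashes are medians and diamonds are means over 1938, 186 and 213 cells. The vertical scale differs between genes. For ppp1r3ca in HepABC HCC the thin line reaches 6 UMIs, against 3 and 2 in the other livers, and for fbp1b in CreLox HCC it reaches down to 4.25.

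Correlation among the 7 genes over the deep cells of HepABC HCC was near 0 for most pairs, with a few pairs of fbp1b standing out. Pearson correlations were taken over log2(UMIs + 1) after thinning, within each library, so all points share a library and its depth, and correlations of sparse counts are held near 0 by counting noise. Over the 21 pairs of genes the median r was 0.00202 for HepABC HCC, 0.0981 for CreLox HCC and 0.0610 for no HCC, beside 0.00289, 0.00775 and 0.00894 over all pairs of genes with a mean of at least 0.2 UMIs. Without cells in which non-hepatocyte markers passed 0.1% of UMIs the medians of the 21 pairs were 0.00744, 0.0191 and 0.0302, so those of CreLox HCC and no HCC were lower by more than 1.5 times. As above, that marker list includes anxa4, so the cells left out need not be of other types. The 5th to 95th percentile of all pairs ran from -0.0576 to 0.0637 in HepABC HCC (n = 1938 cells), from -0.156 to 0.176 in CreLox HCC (n = 186) and from -0.132 to 0.164 in no HCC (n = 213). Above the 95th percentile were 5, 5 and 3 of the 21 pairs.

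Pairs of fbp1b made up most of these. In HepABC HCC fbp1b had r = 0.245 with ppp1r3ca, 0.204 with pygl and 0.196 with pgm1, and ppp1r3ca had 0.134 with pgm1. The fifth pair was pck1 with g6pca.1, at 0.0962. The lowest r of that library was -0.112, for g6pca.1 with ppp1r3ca, and 1.2% of all pairs lay lower.

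When the spread due to counting was taken out of the denominator, the 4 pairs of fbp1b, pgm1, pygl and ppp1r3ca named first had values of 0.372 for fbp1b with ppp1r3ca, 0.533 for fbp1b with pygl, 0.593 for fbp1b with pgm1 and 0.488 for pgm1 with ppp1r3ca. This correction was chosen after seeing the data. The remaining corrected pairs, pgm1 with pygl and pygl with ppp1r3ca, were at -0.0482 and -0.0517, so these genes did not all vary together. pck1 in HepABC HCC had r = -0.00994 with fbp1b, -0.0168 with ppp1r3ca, -0.0505 with pygl and 0.0295 with pgm1. Over the counts these pairs had -0.0128, 0.00785, -0.0690 and 0.0503, or -0.0172, 0.0123, -0.190 and 0.150 corrected for counting. The sign for pck1 with ppp1r3ca changed with the scale, not with the correction. The gluconeogenic pair with the most UMIs in this tumor, pck1 and fbp1b, thus varied over cells with almost no linear relation.

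In the other livers pck1 and fbp1b had the highest r of all 21 pairs, 0.336 in CreLox HCC and 0.409 in no HCC. A few cells in which markers of other cell types passed 0.01% of UMIs entered these values. They are called marker-rich below, although a few UMIs suffice to pass this limit. Without the 16 such cells in CreLox HCC and the 6 in no HCC, r was 0.146 and 0.207, and Spearman's rho over all deep cells was 0.164 and 0.0607. The cells were left out by a reduced list of non-hepatocyte markers and a limit of 0.01% of UMIs, both chosen after seeing the data. The reduced list lacks anxa4, ctss2.2, cd74a and the hemoglobin genes. In HepABC HCC leaving out 36 such cells moved r from -0.00994 to -0.0164.

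The other fbp1b pairs were also lower without these cells. fbp1b with pygl went from 0.334 to 0.168 in CreLox HCC and from 0.230 to 0.0665 in no HCC without them. fbp1b with pgm1 went from 0.303 to 0.247 and from 0.299 to 0.223, so that in each of the 3 livers this pair stayed above the 95th percentile of all pairs given above. In HepABC HCC the pairs of fbp1b with pgm1, pygl and ppp1r3ca were 0.193, 0.199 and 0.242 without the marker-rich cells. ppp1r3ca with pgm1 was 0.0332 in CreLox HCC and 0.0202 in no HCC. The thinned mean of ppp1r3ca was 0.763 and 0.671 UMIs there against 1.91 in HepABC HCC, so counting noise could lower r more there. Whether the livers differed in this r was not tested.

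**Figure D5:**
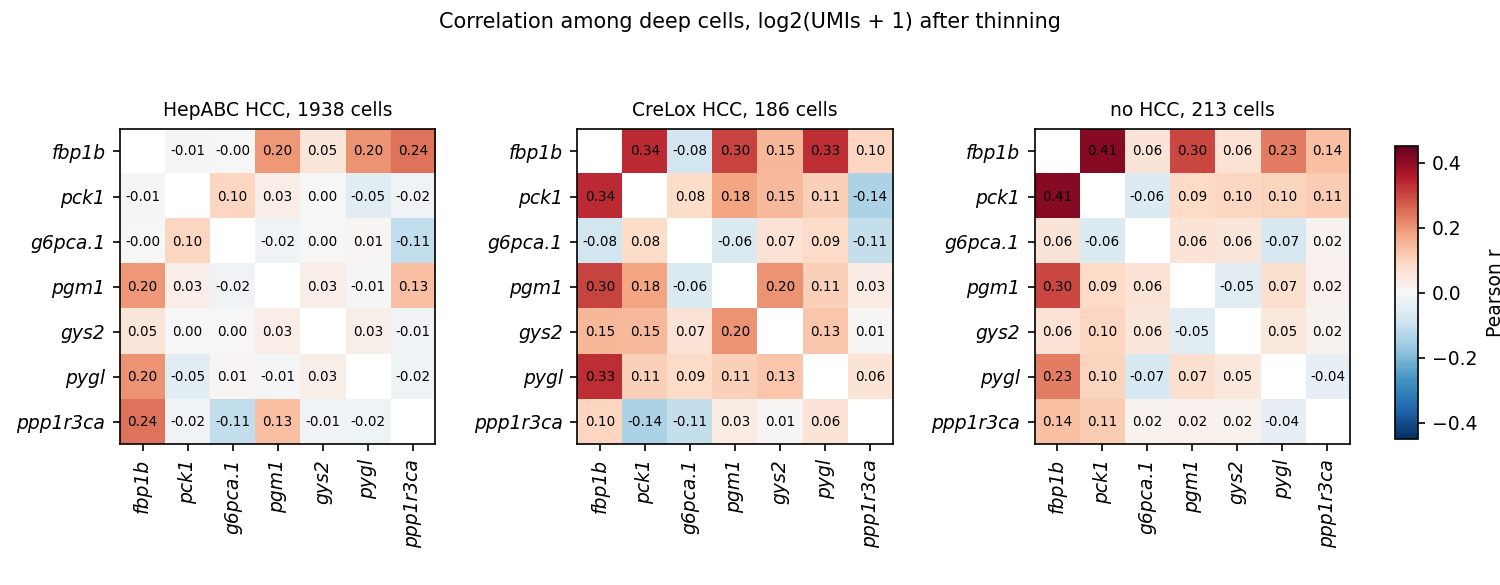
Pearson r over deep cells between each pair of genes, by library, from log2(UMIs + 1) after thinning to 10000 UMIs. Color and printed value give r, with the diagonal left blank. The fbp1b row is the warmest in every panel, the pck1 with fbp1b cell is near 0 in HepABC HCC and is 0.34 in CreLox HCC and 0.41 in no HCC with all deep cells included.

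The number of the 7 genes found per thinned cell was close in HepABC HCC to what independent detection at the same shares would give. Gaps were larger in the other livers, but these had 186 and 213 cells against 1938, and no interval was computed. Whether the livers differed in this was not tested. In HepABC HCC 4.33% of cells had a UMI of all 7 and 40.0% had a UMI of 5, where independent detection would give 3.99% and 40.2%. In CreLox HCC all 7 were found in 4.30% of cells against 3.91%, and in no HCC in 4.69% against 5.44%. CreLox HCC had 5 of the genes in 31.2% of cells against 36.2% and 6 in 24.2% against 19.9%. In no HCC 5 were found in 43.7% against 40.1%. A few cells held fewer than would be looked for, with 4 of 186 CreLox HCC cells and 3 of 213 no HCC cells having UMIs of at most 1 of the genes.

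Among other liver genes, fbp1b and ppp1r3ca had r of the same sign with hpx, pklr, icn and s100a10b in HepABC HCC. ppp1r3ca had r = 0.448 with hpx (haemopexin, a secreted heme carrier) and 0.287 with pklr (pyruvate kinase), and -0.430 and -0.380 with icn and s100a10b, both of the S100 family of calcium-binding proteins. fbp1b had 0.447 with hpx and 0.424 with pklr, and -0.454 and -0.351 with icn and s100a10b. All of these lay beyond the 99th percentile of all pairs, 0.130, or as far below 0. The same pairs of ppp1r3ca were between -0.155 and 0.142 in CreLox HCC and between -0.116 and 0.142 in no HCC, where its UMIs were sparser. In HepABC HCC fbp1b also had r = -0.276 with the mitochondrial share of cells and 0.193 with their total UMIs. For ppp1r3ca these were -0.106 and 0.0326. Neither was held constant in the r given here.

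The pair of fbp1b with pklr was large in all livers, at 0.722 in CreLox HCC and 0.649 in no HCC, and at 0.543 and 0.416 without marker-rich cells. Among the regulators, pathway genes and comparison genes, pck1 in HepABC HCC had its largest values with igfbp1a, at 0.224, and with the apolipoprotein gene apoa1b and the transferrin gene tfa, at -0.194 and -0.179. Its r with igfbp1a was 0.122 in CreLox HCC and 0.152 in no HCC, and 0.00612 and 0.157 without the marker-rich cells. When igfbp1a was held constant, r of pck1 with fbp1b in HepABC HCC was -0.0115.

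The genes most like each of the 7 were taken as those with the highest value of the lowest r over the libraries, among 1471 genes with a mean of at least 0.2 thinned UMIs in each. For fbp1b these included adh8a, an alcohol dehydrogenase gene, with a lowest r of 0.620, and serpina1 with 0.509. For pgm1 they included pklr (0.223) and leg1.1 (0.223), and for pygl apoa1b (0.219), fbp1b itself (0.204) and hpda (0.179), a gene of tyrosine breakdown. For ppp1r3ca they included gpd1b (0.176), a glycerol phosphate dehydrogenase gene, and gamt (0.124), which acts in creatine synthesis.

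pck1 had other neighbors, cdab (0.229), a cytidine deaminase gene, pnp5a (0.193), a purine nucleoside phosphorylase gene, and diabloa (0.184). For g6pca.1 no gene passed 0.128, the value of cbln8, which was followed by sdr16c5b (0.125) and serpina7 (0.108). gys2 passed the minimum mean in CreLox HCC and no HCC only, where ucp1 (0.163), cbsa (0.153) and prr13 (0.151) ranked first among 1629 genes. By this measure pygl ranked 57th, pgm1 60th and ppp1r3ca 140th among the genes most like fbp1b, while pck1 ranked 469th and g6pca.1 844th. Among the genes most like pck1, fbp1b ranked 477th and g6pca.1 921st.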

How the data were processed

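Single-cell RNA sequencing had been run on 1 liver per group with droplet 3′ chemistry after trypsin dissociation. The authors deposited raw UMI counts per gene and cell, not normalized, made with Cell Ranger 2.2.0 on GRCz11 per the submitters' processing notes, with EmptyDrops and removal of cells with outlying quality measures per the methods. Symbols were used as deposited, and no coordinates or sequences are given. Free RNA and doublets were not removed, so both can enter the values.

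The members, pathway lists and marker lists were chosen with earlier results of these data known. All 7 members are named, and list genes are named by a ratio past 2 or under 0.5. pck2, pcxa, mdh2, slc37a4a and gapdh, within these limits, genes past them with TMM factors alone, and the copies of members were named after their values were seen, as were the pairs singled out among correlations. A gene among those most like some members is not reported here.

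UMIs were summed over cells with at least 10000 UMIs and expressed as CPM, with 95% Poisson intervals computed exactly. Ratios have exact conditional intervals for 2 Poisson counts and shares have exact Clopper-Pearson intervals. No test was made, since each group had 1 library. The background was genes listed in both libraries with a mean of at least 10 CPM. Thinning was without replacement with seed 1, or 2 in an alternative. The statistics were checked on simulated data. Python 3.11.15, numpy 2.4.6, scipy 1.17.1, pandas 2.3.3, matplotlib 3.10.9 and, for TMM factors, edgeR 4.0.16 in R 4.3.3 were used.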

Additional observations from a re-analysis of the deposited data

How the results depend on the processing

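No paired analysis was possible because each group had 1 library, and for the same reason no replicate could be left out. Counts of genes past 2-fold were recomputed under 54 alternatives and stayed within 1.5 times in 49. The count lower in HepABC HCC than in no HCC went from 0 to 1 with median-of-ratios size factors, where pgm1 was at 0.499. The count lower in HepABC HCC than in CreLox HCC, which is gys2 at 0.499, went from 1 to 0 with cells of at least 20000 UMIs, with scaling without mitochondrial and top 20 genes, with TMM factors and with median-of-ratios size factors. The ratio is so close to 0.5 that small shifts move the count. Of 189 alternative values for single ratios, 80 moved by more than the counting interval, most of them under TMM or median-of-ratios scaling or with all cells of the library. Of 84 alternative values for unevenness 16 moved. The median correlation over the 21 pairs of genes went from 0.0981 to 0.0191 in CreLox HCC and from 0.0610 to 0.0302 in no HCC without cells over 0.1% of non-hepatocyte marker UMIs, and to 0.0399 and 0.0246 with the reduced marker list. A second thinning gave 0.0529 in CreLox HCC and 0.0644 in no HCC. In HepABC HCC it lay between 0.00202 and 0.00934 under these settings. Depth limits gys2 most, with 106 to 892 UMIs per library. Differences between animals and differences between libraries cannot be told apart.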
